A study of Mus musculus with 12 samples.

Results

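Aged microglia with little phosphorylated ERK1/2 were compared with microglia from the adult mouse CNS on a panel of 770 neuroinflammation genes. The comparison took every sample labelled P-ERK1/2 Low, 4 in number (samples 3, 6, 9 and 12), and the 3 adult samples that the submitters kept (samples 1, 4 and 10), so 7 of the 12 samples of the series. Of the 784 rows of the deposited table, the 14 control probes were set aside and all 770 genes were kept. The aged C57B6 mice were over 80 weeks old and the adult C57B6 mice 12 to 20 weeks old, and the labels give mice and cells as untreated. Each sample pooled the CNS of a male and a female mouse. Cells were taken with CD11b beads, fixed, permeabilized, stained and sorted as YFP+, CD45 intermediate and Ly6G- cells, YFP being the reporter that the study's *Cx3cr1*-CreERT mice carry. The labels give no genotype, and the study's methods describe hemizygous Cre mice given tamoxifen, which the study places shortly before sampling for adult mice and long before it for aged mice.

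The aged cells were divided by the phosphorylation of ERK1/2 at Thr202 and Tyr204, whereas the adult cells were not divided. Age, the time since tamoxifen and selection for low P-ERK1/2 therefore differ together between the groups and cannot be told apart. In pooled RNA, fewer cells of a kind and less RNA per cell cannot be told apart either. The labels do not tie a sample to particular animals beyond this pool, and p-values measure the spread between these samples. A further adult sample, number 11, is marked as excluded for poor quality in the labels and enters only where it is named.

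Microglia are the resident macrophages of the CNS. At rest they carry a characteristic set of homeostatic genes, among them the purinergic receptor *P2ry12*, the membrane protein *Tmem119* and the transcription factor *Sall1*. With age, injury or neurodegeneration they can lower these genes and raise phagocytic, lipid-handling and chemokine genes, and they renew themselves by local division. ERK1 and ERK2 are the last kinases of the cascade that growth factors such as CSF-1 and IL-34 start through the receptor CSF1R, and their phosphorylation turns on immediate early genes such as *Fos* and *Egr1*.

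The values are normalized signals of the NanoString nCounter, an instrument that tags each target RNA with a color barcode and counts the barcodes without amplification. Recovered total counts ran from 123798 to 157209 for aged P-ERK1/2 Low and from 137980 to 326575 for adult microglia. The background of a sample was 2 SD over the mean of the 8 negative controls read in it. Of the genes, 410 to 484 exceeded it in an aged P-ERK1/2 Low sample and 417 to 560 in an adult sample. Of the 770 genes, 356 were above background in all 7 samples and 198 in none. Scaled like the genes, the negative controls averaged 35.5 in the aged P-ERK1/2 Low and 22.3 in the adult samples, and the log2 of each sample's average was higher by 0.70 in the mean of the aged samples. The 198 genes above background in no sample had a median log2 fold change of -0.13, of the opposite sign. The part of this offset in the results was not tested beyond the subtraction of the negative controls given in the closing section.

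A gene was called where limma gave p under 0.01 and the difference in log2(value + 1) was over 1, the thresholds of the study. By this rule 83 of 770 genes were called, 10.8% of the panel: 62 were higher in aged P-ERK1/2 Low microglia (8.05%) and 21 were lower (2.73%). All 83 had a Benjamini-Hochberg adjusted p under 0.05 in limma. The groups did not overlap for 281 genes, 36.5% of the panel, and among the 83 called genes *Kdm4d* alone overlapped. Over the whole panel the median log2 fold change was 0.10. For 6 called genes (*Gdpd2*, *Cpa3*, *Lst1*, *Plxnb3*, *Cst7* and *Kdm4d*) no sample of either group was above background, and no fold is given for them. At a fitted log2 fold change beyond 2 there were 6 genes on the high side and a single gene on the low side.

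**Figure D1:**
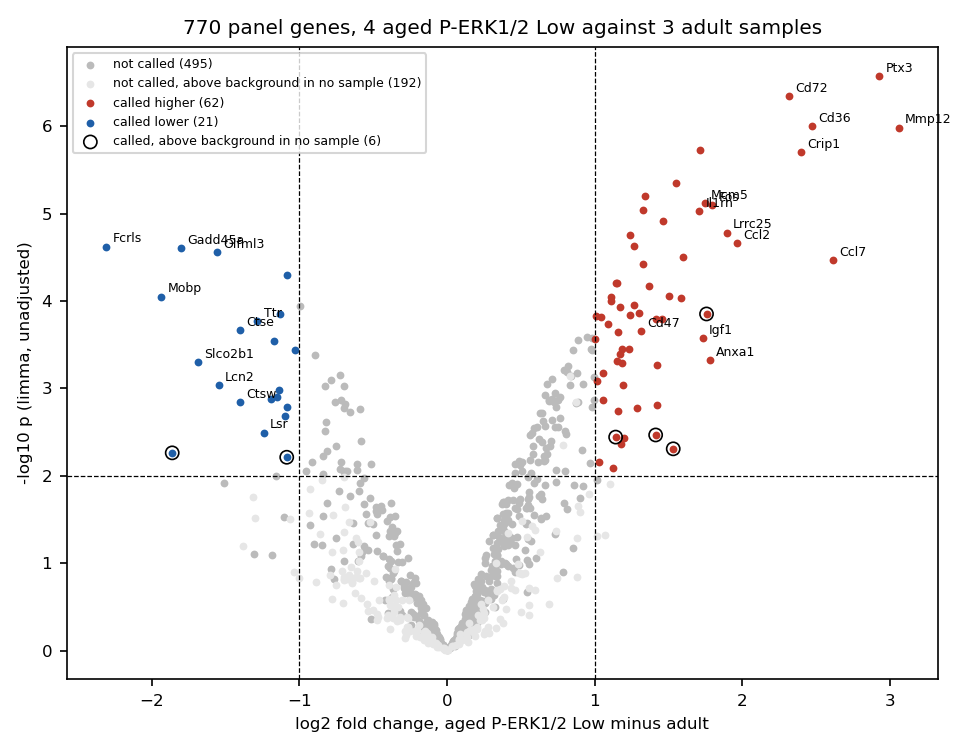
Each point is 1 of 770 genes, with the log2 fold change of aged P-ERK1/2 Low (n = 4) minus adult (n = 3) on the x axis and the −log10 of the unadjusted limma p on the y axis. Dashed lines mark the thresholds, and black rings mark the 6 called genes above background in none of the 7 samples. The called genes are mostly on the right side, 62 against 21.

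Among called genes, *Mmp12* and *Ptx3*, which encode secreted proteins, had the largest rises. *Mmp12*, the macrophage metalloelastase, had normalized values of 27424, 28632, 25861 and 33597 in aged P-ERK1/2 Low samples 3, 6, 9 and 12 and 2702, 5004 and 3027 in adult samples 1, 4 and 10. Every aged sample exceeded every adult sample by more than 5-fold, and the means differed 8.34-fold (log2 fold change 3.06, SE 0.23, limma with Benjamini-Hochberg adjusted p = 0.0002). *Ptx3*, a long pentraxin that is secreted and binds microbes and dying cells, was at 535, 557, 514 and 763 in the aged samples and 65.8, 79.2 and 84 in the adult samples, and the fold was 7.61 (log2 fold change 2.93, SE 0.18, limma with Benjamini-Hochberg adjusted p = 0.000175). *Cd36*, a scavenger receptor that takes up oxidized lipoproteins and long-chain fatty acids, was at 2575, 2850.2, 2416 and 3085 in the aged samples and 415, 626 and 447 in the adult samples, a 5.56-fold difference (log2 fold change 2.48, SE 0.18, limma with Benjamini-Hochberg adjusted p = 0.0002). In each of these genes the groups lay far apart, and sample 12 was the highest of the aged samples. *Cd72*, an inhibitory receptor of the C-type lectin kind, was at 447, 424, 388 and 496 in the aged samples and 81.7, 101 and 79.1 in the adult samples (log2 fold change 2.32, SE 0.16, limma with Benjamini-Hochberg adjusted p = 0.000175). *Crip1*, a small LIM-domain protein, was at 1044, 939.5, 1043 and 1555 in the aged samples and 197, 229 and 210.0 in the adult samples, with sample 12 above the other aged samples (log2 fold change 2.40, SE 0.20, limma with Benjamini-Hochberg adjusted p = 0.000255). *Lrrc25*, a leucine-rich repeat membrane protein of myeloid cells, was at 176, 179, 198 and 291 in the aged samples and 56.7, 48.9 and 59.3 in the adult samples (log2 fold change 1.89, SE 0.21, limma with Benjamini-Hochberg adjusted p = 0.000907), and again sample 12 was the highest.

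Chemokine ligands of the monocyte receptor CCR2 rose together with these. *Ccl7* was at 237, 189, 193 and 320.0 in the aged samples and 56.7, 23.3 and 37.1 in the adult samples. No adult sample was above background for *Ccl7* and all 4 aged samples were, the only gene of the panel with this pattern, and the difference was at least 3.71-fold against the adult background (limma with Benjamini-Hochberg adjusted p = 0.00121). *Ccl2* was at 1274, 1367, 1329.6 and 1653 in the aged samples and 319.9, 282 and 507 in the adult samples, with no overlap (log2 fold change 1.97, SE 0.22, limma with Benjamini-Hochberg adjusted p = 0.001). *Ccl4*, a chemokine that draws monocytes and lymphocytes, was at 494 ± 22.6 (SD, n = 4) in aged P-ERK1/2 Low and 222 ± 42.7 (SD, n = 3) in adult microglia (log2 fold change 1.17, SE 0.17, limma with Benjamini-Hochberg adjusted p = 0.00256). The fourth called chemokine moved the other way: *Ccl5*, which attracts T cells, was called lower at 77.9, 87.6, 82.9 and 53.3 in the aged samples and 152, 139 and 210.0 in the adult samples, with 1 of 4 aged samples above background (limma with Benjamini-Hochberg adjusted p = 0.00923). It was not called without aged sample 12 or adult sample 10. Of the 12 chemokines and receptors on the list, 3 were higher, 1 was lower and 8 were not called, 25% and 8.33% against 8.05% and 2.73% of the panel, with a median log2 fold change of 0.24 against 0.10 for all genes. Among the 8 not called with the deposited values, *Ccl3* had a log2 fold change of 0.64. *Cxcl10* was above background in every adult sample and in no aged sample, and no fold is given for it. *Ccr2* itself was above background in none of the 7 samples.

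The remaining genes among the 12 largest rises were of other kinds. *Il1rn* and *Cd47* rose less and are given with them because the study labels both for this comparison. *Fos*, a subunit of the AP-1 transcription factor, was at 1115, 1504, 1316 and 1551 in the aged samples and 427, 329.6 and 425 in the adult samples (log2 fold change 1.80, SE 0.18, limma with Benjamini-Hochberg adjusted p = 0.000598). *Anxa1*, an annexin that dampens inflammation, was at 2118, 2184, 1923 and 3023 in the aged samples and 604, 1097 and 437 in the adult samples (log2 fold change 1.78, SE 0.31, limma with Benjamini-Hochberg adjusted p = 0.00582). *Igf1*, a growth factor that supports neurons and myelin-forming cells, was at 820.0, 708, 701 and 1210.2 in the aged samples and 238, 359.8 and 185 in the adult samples (log2 fold change 1.73, SE 0.28, limma with Benjamini-Hochberg adjusted p = 0.00405). The adult values of *Anxa1* and *Igf1* spread over more than 1.5-fold, and the aged values still lay above all of them. *Il1rn*, the antagonist of the interleukin-1 receptor, was at 332, 344, 230.1 and 304 in the aged samples and 88.5, 89.7 and 93.9 in the adult samples (log2 fold change 1.71, SE 0.17, limma with Benjamini-Hochberg adjusted p = 0.000598). *Cd47*, the ligand that restrains phagocytosis through SIRPα, was at 430.3, 494, 415 and 496 in the aged samples and 141, 178 and 247 in the adult samples (log2 fold change 1.31, SE 0.21, limma with Benjamini-Hochberg adjusted p = 0.0036). The replication gene *Mcm5* also belongs among the 12 and is described with its group.

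**Figure D2:**
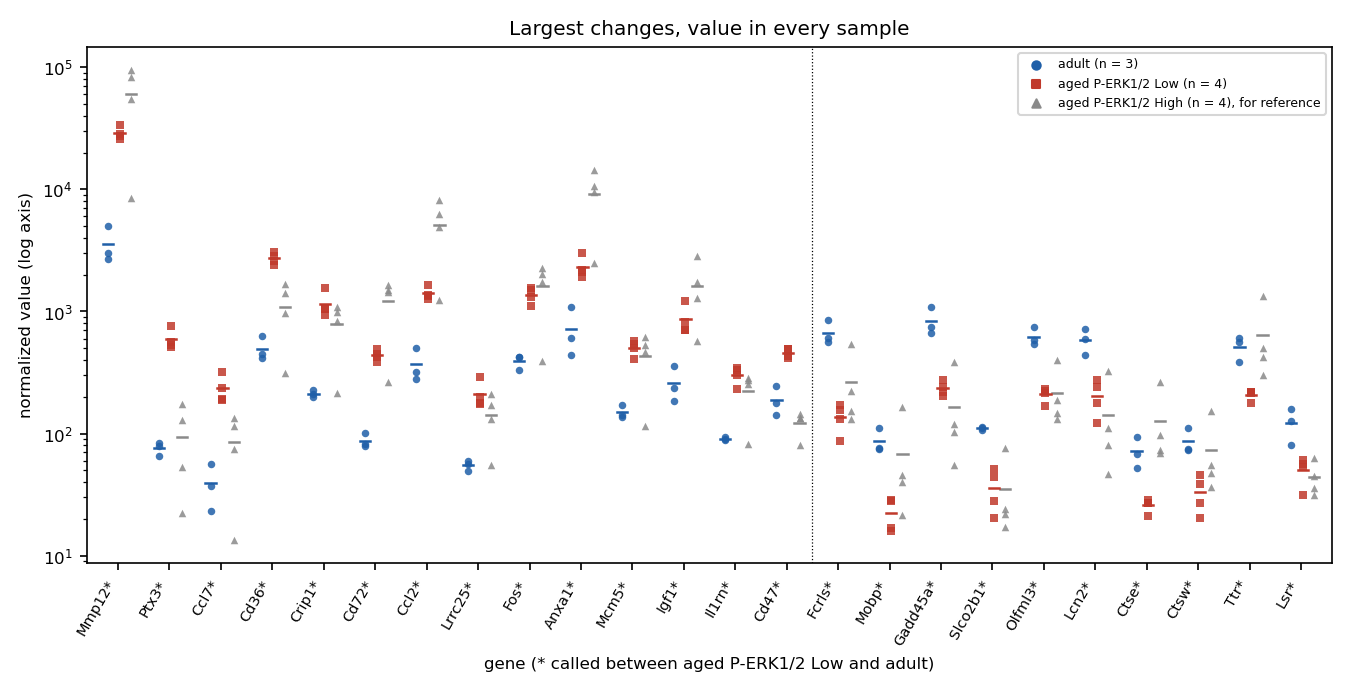
Normalized value on a log axis for the 24 genes named by size or by the study, with adult samples as blue circles, aged P-ERK1/2 Low samples as red squares, aged P-ERK1/2 High samples as grey triangles and a bar at each mean. Genes called higher are left of the dotted line and genes called lower are right of it, and red and blue points overlap for none of them. For *Mobp*, *Slco2b1*, *Ctse*, *Ctsw* and *Lsr* no red point is above background.

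Of the 21 genes called lower, 6 were above background in all 7 samples: *Gadd45a*, *Olfml3*, *Lcn2*, *Ttr*, *Hif1a* and *Sox4*. The others had at least 1 aged sample at background, which limits how exact their falls are. *Fcrls*, an Fc receptor-like scavenger receptor that marks microglia, was at 173, 87.6, 131 and 156 in aged P-ERK1/2 Low samples 3, 6, 9 and 12 and 601, 851 and 563 in adult samples 1, 4 and 10. Of the aged samples 3 of 4 were above background. The lowest adult value was over 3 times the highest aged value, and the fall was 4.95-fold (log2 fold change -2.31, SE 0.26, limma with Benjamini-Hochberg adjusted p = 0.001). *Olfml3*, a secreted glycoprotein of microglia, was at 213, 224, 169 and 234 in the aged samples and 538, 746 and 581 in the adult samples (log2 fold change -1.56, SE 0.18, limma with Benjamini-Hochberg adjusted p = 0.00106). *Slco2b1*, an organic anion transporter, was at 44, 28.1, 50.8 and 20.5 in the aged samples and 111, 107 and 114 in the adult samples. No aged sample was above background for *Slco2b1*, so the fall was at least 1.13-fold (limma with Benjamini-Hochberg adjusted p = 0.00598). *Tmem119* was called lower at 54.2, 77.1, 69.5 and 82 in the aged samples and 134, 153 and 146 in the adult samples, with 1 of 4 aged samples and all adult samples above background (limma with Benjamini-Hochberg adjusted p = 0.0047). Without aged sample 3 or without adult sample 4 *Tmem119* was not called.

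Over the 18 homeostatic genes, 4 were called lower, none was called higher and 14 were not called, with a median log2 fold change of -0.41 against 0.10 for all genes. The share lower was 22.2% against 2.73% of the panel. Leaving out each sample gave medians from -0.52 without aged sample 6 to -0.22 without adult sample 10, with 3 to 5 genes called lower. *Sall1* missed the fold limit at 77.9, 98.2, 85.6 and 103 in the aged samples and 157, 148 and 143 in the adult samples, with a log2 fold change of -0.71 and 1 of 4 aged samples above background. *P2ry12* was at 50.8, 31.6, 61.5 and 36.9 in the aged samples and 72.6, 78 and 101 in the adult samples. It was above background in no aged sample and in 2 of 3 adult samples, and since the aged background was 69.2 to 117, its level has no measured order between the groups. *Tgfbr1*, the TGF-β receptor that keeps microglia in the homeostatic state, had 947 ± 98.1 against 1488 ± 81.6 and a log2 fold change of -0.66. The list was not uniform, since the CSF-1 and IL-34 receptor *Csf1r* had 2745 ± 154 against 1846 ± 199.8, a log2 fold change of 0.58 with the aged samples above the adult ones. *Cx3cr1*, the fractalkine receptor and the locus of the Cre allele, had 0.79 with overlapping groups. It was not above background in aged sample 12 and adult sample 1. Under scaling to the positive controls alone the log2 fold changes of *Csf1r* (-0.24) and *Cx3cr1* (-0.013) turned sign.

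Disease-associated microglia are a state described in models of neurodegeneration, in which TREM2 signalling raises phagocytic and lipid genes. Of the 11 genes of this state on the panel, 2 were called higher, 1 was called lower (*Cst7*, below background in both groups) and 8 were not called, 18.2% and 9.09% against 8.05% and 2.73% of the panel, with a median log2 fold change of 0.65. The called genes were *Igf1* and *Itgax*, the integrin CD11c, which was at 369, 354, 308 and 423 in the aged samples and 99.8, 171 and 143 in the adult samples (log2 fold change 1.41, SE 0.21, limma with Benjamini-Hochberg adjusted p = 0.00291). *Clec7a*, the β-glucan receptor dectin-1, was at 1365, 1641, 1445 and 1735 in the aged samples and 681, 741 and 929 in the adult samples, just short of the fold limit (log2 fold change 0.99). *Trem2* (0.65) and its adaptor *Tyrobp* (0.75) lay above the adult samples without overlap but under the fold limit. *Spp1*, osteopontin, was at 24294 ± 4087 (SD, n = 4) in aged P-ERK1/2 Low and 28770.3 ± 9402 (SD, n = 3) in adult microglia, and *Apoe*, the main lipid carrier of the brain, was at 2417 ± 375 against 3358 ± 531. The groups overlapped for both, and neither was called. Their log2 fold changes, -0.21 for *Spp1* and -0.47 for *Apoe*, turned positive without adult sample 4 for *Spp1* (0.041) and with adult sample 11 added for *Apoe* (0.15). Scaled to the positive controls alone, the median of these 11 genes was -0.17 with 3 called lower and none higher, and with adult sample 11 added it was 0.15 with 1 lower and none higher.

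**Figure D3:**
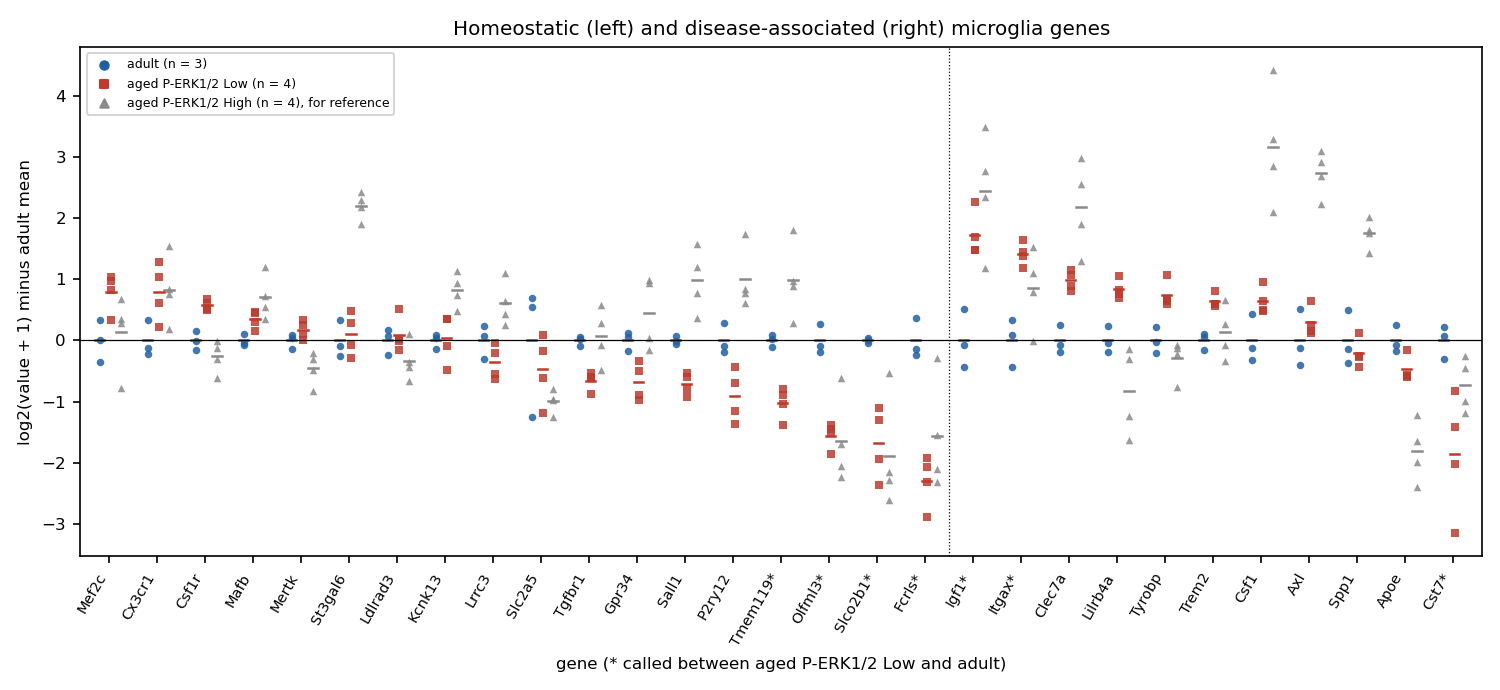
Difference of log2(value + 1) from the adult mean for 18 homeostatic genes (left of the dotted line) and 11 disease-associated genes (right), by sample, with a bar at each group mean and an asterisk on called genes. Aged P-ERK1/2 Low samples (red squares) run from above to far below the adult samples (blue circles) on the left, where 4 genes are called lower, and lie mostly above them on the right.

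Receptors for debris, antibodies and inhibitory signals had positive medians with the deposited values and with every scaling but that to the positive controls alone, where they were -0.10, -0.19 and -0.15. Of 6 scavenger receptors 2 were called higher (33.3% against 8.05% of the panel), *Cd36* and *Msr1*, the class A scavenger receptor for modified lipoproteins, which was at 1227, 1343, 1223 and 1452 in the aged samples and 363, 422 and 413 in the adult samples (log2 fold change 1.71, SE 0.14, limma with Benjamini-Hochberg adjusted p = 0.000255). Of 16 Fc and phagocytic receptors 2 were called higher, 12.5% against 8.05%: the activating receptor *Fcgr3* was at 489.9 ± 49 (SD, n = 4) in aged P-ERK1/2 Low and 191 ± 38.3 (SD, n = 3) in adult microglia (log2 fold change 1.37, SE 0.18, limma with Benjamini-Hochberg adjusted p = 0.00195), and the inhibitory receptor *Fcgr2b* was at 913 ± 125 against 448 ± 137 (log2 fold change 1.06, SE 0.22, limma with Benjamini-Hochberg adjusted p = 0.0107). *Fcgr2b* was not called without aged sample 12, adult sample 1 or adult sample 10. The median of the 16 genes was 0.63, or 0.16 under quantile normalization and 0.14 with adult sample 11 added. Of these genes 8 lay above every adult sample, as did 201 of the 770 panel genes, and 1 lay below, as did 80 of the 770, the integrin subunit *Itgb5*, which had 1206, 1304, 1139.6 and 1227 in the aged samples and 2139.6, 2737 and 2458 in the adult samples and a log2 fold change of -0.998 that did not pass the fold limit.

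Of 18 inhibitory and SLAM-family receptors and their partners, 4 were called higher and none lower, 22.2% against 8.05% of the panel, with a median of 0.66. They were *Cd72*, *Lrrc25*, *Cd47* and *Slamf9*, a SLAM-family receptor of myeloid cells that was at 210.1, 224, 222 and 229.7 in the aged samples and 72.6, 96.7 and 71.7 in the adult samples (log2 fold change 1.47, SE 0.15, limma with Benjamini-Hochberg adjusted p = 0.000726). The aged values of *Slamf9* were the least spread of these. The collagen receptor *Lair1* (0.97) and *Lilrb4a* (0.84), which both carry inhibitory motifs, were not called. Scaled to the positive controls alone 2 of the 18 stayed higher and 1 was lower. Of 9 complement genes 1 was called higher, 11.1% against 8.05% of the panel. This was *C5ar1*, the receptor for complement fragment C5a, at 2206, 2538, 2103 and 2371 in the aged samples and 801, 709 and 850.0 in the adult samples (log2 fold change 1.55, SE 0.14, limma with Benjamini-Hochberg adjusted p = 0.00049). *C3ar1*, the receptor for C3a, had a log2 fold change of 0.95, without overlap and under the fold limit.

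In the interleukin-1 system, with 16 genes and a median of 0.22, the antagonist *Il1rn* and the inflammasome sensor *Nlrp3* were called higher and the ligand *Il1a* lower, 12.5% and 6.25% against 8.05% and 2.73% of the panel. *Nlrp3* was at 366, 466, 383 and 398 in the aged samples and 177, 189.8 and 237 in the adult samples, at the fold limit (log2 fold change 1.00, SE 0.16, limma with Benjamini-Hochberg adjusted p = 0.00405), and was not called without aged sample 6, adult sample 1 or adult sample 4. *Il1a* was at 74.5, 87.6, 80.3 and 73.8 in the aged samples and 154, 155 and 239.7 in the adult samples, with 1 of 4 aged samples above background (limma with Benjamini-Hochberg adjusted p = 0.00408), and it was not called without adult sample 10. *Il1b* was above background in none of the 7 samples, and the receptor kinase *Irak2* had 241 ± 35.2 against 426 ± 39.3 and a log2 fold change of -0.83. Of 26 genes of TNF and NF-kB signalling, the cytokine *Tnf* and the inhibitor *Nfkbia* were called higher and none was called lower, 7.69% against 8.05% of the panel, with a median of -0.03. *Tnf* was at 1189, 1318, 1190.5 and 1358 in the aged samples and 551, 406 and 637 in the adult samples (log2 fold change 1.27, SE 0.18, limma with Benjamini-Hochberg adjusted p = 0.00256). *Nfkbia*, which holds NF-kB in the cytoplasm and is itself its target, was at 579, 487, 569.8 and 570.2 in the aged samples and 240.5, 215 and 242 in the adult samples (log2 fold change 1.24, SE 0.14, limma with Benjamini-Hochberg adjusted p = 0.000913). None of the 8 genes on the list of Toll-like receptors and *Cd14* was called in limma. The Toll-like receptors of the panel are *Tlr2*, *Tlr4* and *Tlr7*, so the list holds other genes too. Of these 8 genes, 4 had an unadjusted limma p under 0.05, as did 302 of the 770 panel genes. *Cd14*, the co-receptor for lipopolysaccharide, had a log2 fold change of 0.85. The edgeR test called none of the 8 either, while limma called 3 lower with positive-control scaling and 1 higher with the 6 stable housekeeping genes.

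Of 27 interferon response genes, 2 were called higher and none lower, 7.41% against 8.05% of the panel, with a median of 0.08. Both encode membrane proteins that restrict viral entry: *Ifitm3* was at 1233, 1129, 1086 and 1288 in the aged samples and 463, 495 and 452 in the adult samples (log2 fold change 1.33, SE 0.13, limma with Benjamini-Hochberg adjusted p = 0.000598), and *Ifitm2* was at 737 ± 159 against 350.0 ± 45 (log2 fold change 1.06, SE 0.20, limma with Benjamini-Hochberg adjusted p = 0.00714). *Ifitm2* was not called without aged sample 12 or adult sample 10. The transcription factor *Irf1* (0.89) lay above the adult samples without overlap and was not called. Of 11 genes of antigen presentation and costimulation, 1 was called lower (9.09% against 2.73% of the panel) and none higher, with a median of -0.39, and 5 lay below every adult sample, as did 80 of the 770 panel genes. The number called lower was 2 without aged sample 6 or adult sample 4, with median-of-ratios scaling, with the negative controls subtracted and by edgeR. It was 3 with adult sample 11 added, 4 under quantile normalization, 6 with positive-control scaling and 0 with unequal variances. The called gene was the protease *Ctse*, at 27.1, 21, 26.8 and 28.7 in the aged samples and 68.1, 52.4 and 93.9 in the adult samples. It was above background in no aged sample and in 2 of 3 adult samples, and no fall can be bounded. *Cd74*, the invariant chain of MHC class II, had 244, 294, 251 and 115 in the aged samples and 476, 359.8 and 633 in the adult samples with a log2 fold change of -1.16 that missed the p threshold, and the costimulatory genes *Cd83* (-0.79) and *Cd86* (-0.81) missed the fold limit.

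Immediate early genes are the first that ERK1/2 signalling turns on, and they also respond to tissue dissociation. Of 12 such genes 4 were called higher, 33.3% against 8.05% of the panel, and the median log2 fold change was 0.48, or -0.33 under scaling to the positive controls alone. Besides *Fos* and *Nfkbia* these were *Egr1*, a zinc-finger transcription factor, at 942, 1195, 1094 and 1005 in the aged samples and 479, 424 and 593 in the adult samples (log2 fold change 1.09, SE 0.17, limma with Benjamini-Hochberg adjusted p = 0.00316), and *Dusp7*, a phosphatase that removes the phosphate groups of ERK1/2, at 417, 452, 350.4 and 377 in the aged samples and 159, 161 and 175 in the adult samples (log2 fold change 1.26, SE 0.14, limma with Benjamini-Hochberg adjusted p = 0.001). *Egr1* was not called without adult sample 4. *Myc* had a log2 fold change of 0.61 and was not called. The aged P-ERK1/2 High samples had 2016, 2270.1, 394 and 1747 for *Fos* and 1199, 1486, 619.9 and 1561 for *Dusp7*. Under scaling to the positive controls alone, and with adult sample 11 added, none of the 12 was called higher. None of 19 genes of the MAPK and PI3K-AKT kinases was called by limma. Of the 19, 8 had an unadjusted limma p under 0.05, as did 302 of the 770 panel genes. The p38 kinase *Mapk14* had a log2 fold change of 0.98. By edgeR the count for these kinases was also 0. With positive-control scaling 5 were called lower, and 1 was called higher with 6 stable housekeeping genes, with the negative controls subtracted and without aged sample 9, adult sample 4 or adult sample 10. Without aged sample 3, 1 was called lower.

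Of 21 genes of cell cycle and DNA replication, 12 were called higher in aged P-ERK1/2 Low microglia and none lower, 57.1% against 8.05% of the panel. The median log2 fold change was 1.15 against 0.10 for all genes, all 21 had a positive fold change, and 17 lay above every adult sample, as did 201 of the 770 panel genes. By sample, 20, 19, 18 and 20 of the 21 genes exceeded every adult value in aged samples 3, 6, 9 and 12. The called genes covered several steps of replication and division.

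The helicase that opens DNA at replication origins is built from MCM proteins, and *Mcm5* was at 498, 539.9, 409 and 574 in aged P-ERK1/2 Low samples 3, 6, 9 and 12 and 141, 172 and 136 in adult samples 1, 4 and 10 (log2 fold change 1.75, SE 0.17, limma with Benjamini-Hochberg adjusted p = 0.000598). *Mcm6* was at 383, 386, 393 and 468 in the aged samples and 113, 196 and 131 in the adult samples (log2 fold change 1.501, SE 0.21, limma with Benjamini-Hochberg adjusted p = 0.00232), and *Mcm2* was at 152, 182, 201 and 275 in the aged samples and 68.1, 116 and 86.5 in the adult samples (log2 fold change 1.16, SE 0.25, limma with Benjamini-Hochberg adjusted p = 0.0122). *Mcm2* was not called without aged sample 12 or adult sample 1. *Pcna*, the sliding clamp of the replicative polymerases, was at 2172, 2451, 2226 and 2765 in the aged samples and 1055, 989.8 and 1196 in the adult samples (log2 fold change 1.15, SE 0.15, limma with Benjamini-Hochberg adjusted p = 0.00183). *Lig1*, the ligase that joins the fragments of the lagging strand, was at 189.7, 189, 166 and 275 in the aged samples and 65.8, 67.5 and 64.2 in the adult samples (log2 fold change 1.60, SE 0.19, limma with Benjamini-Hochberg adjusted p = 0.00115), and *Rrm2*, a subunit of the enzyme that makes deoxynucleotides, was at 454, 382, 417 and 488 in the aged samples and 154, 242 and 111 in the adult samples (log2 fold change 1.43, SE 0.26, limma with Benjamini-Hochberg adjusted p = 0.00624). In each of these genes the lowest aged value lay above the highest adult value. *Fen1*, the flap endonuclease that works with *Lig1*, had 168 ± 30.3 against 85.2 ± 18.4 and a log2 fold change of 0.98, just under the limit.

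Genes of the control of division and of mitosis were called as well. *E2f1*, a transcription factor that turns on S-phase genes, was at 129, 151, 115 and 180.5 in the aged samples and 56.7, 78 and 56.8 in the adult samples (log2 fold change 1.15, SE 0.20, limma with Benjamini-Hochberg adjusted p = 0.00588). *Birc5*, survivin, a member of the chromosomal passenger complex, was at 125, 151, 104 and 152 in the aged samples and 47.6, 52.4 and 32.1 in the adult samples (log2 fold change 1.59, SE 0.22, limma with Benjamini-Hochberg adjusted p = 0.00232). *Top2a*, the topoisomerase of mitotic chromosomes, was at 322 ± 76.5 (SD, n = 4) in aged P-ERK1/2 Low and 140.5 ± 16.8 (SD, n = 3) in adult microglia (log2 fold change 1.17), and *Ncaph*, a condensin subunit, was at 147 ± 29.7 against 63.8 ± 12.5 (1.19). *Stmn1*, which destabilizes microtubules, had 813 ± 143 against 362 ± 54.2 (1.16), and the lamin gene *Lmnb1* had 220.4 ± 38 against 92.4 ± 13.7 (1.24). Outside this list, *Cdkn1a*, the cyclin-dependent kinase inhibitor p21, had 2062 ± 216 against 1424 ± 328, a log2 fold change of 0.55 that was not called. All 12 called genes of the list were above background in the 4 aged samples, and *Mcm5*, *Mcm6*, *Rrm2*, *Pcna*, *Top2a* and *Stmn1* in the 3 adult samples too. With the negative controls subtracted 11 of the list were called. Leaving out each of the 7 samples in turn gave 11 to 13. The edgeR test on recovered counts called 6, and none was called when the counts were scaled to the positive controls alone (median 0.34) or when adult sample 11 was added (median 0.48). In sample 11, 20 of the 21 genes exceeded the 3 adult samples that were kept.

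**Figure D4:**
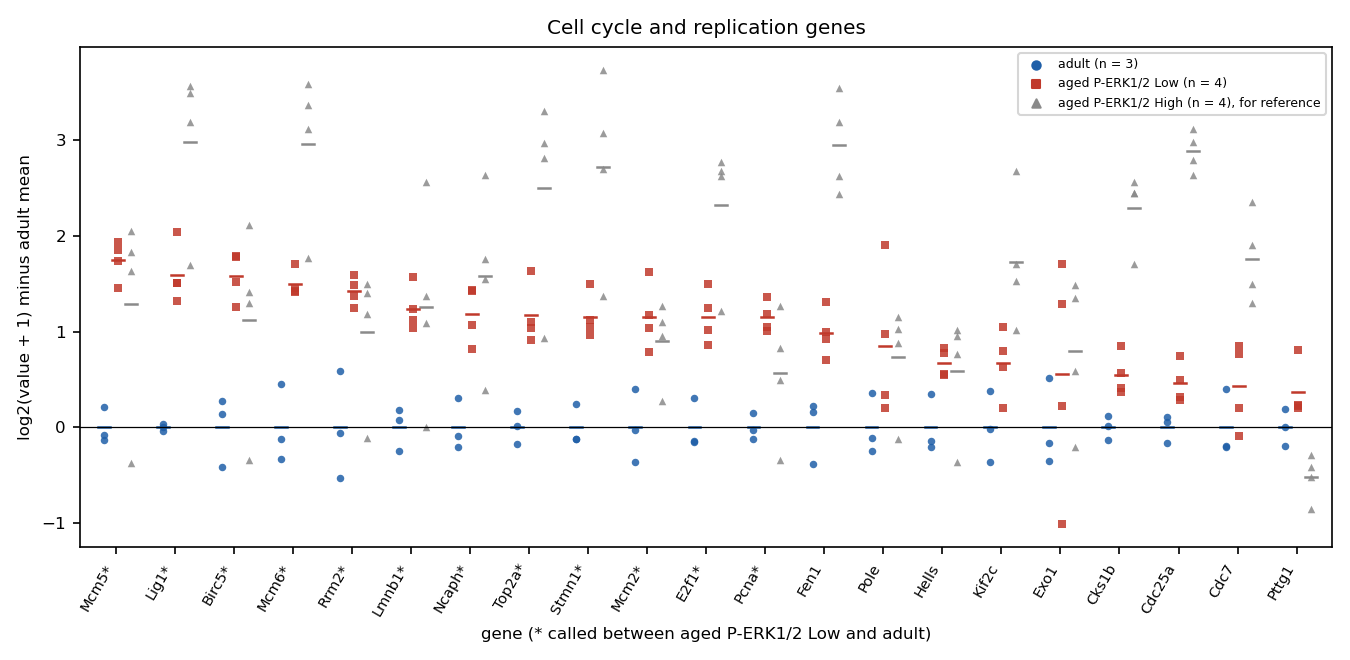
Difference of log2(value + 1) from the adult mean for the 21 cell cycle and replication genes, by sample, with a bar at each group mean and an asterisk on the 12 called genes. Aged P-ERK1/2 Low samples (red squares) lie above the adult samples (blue circles) for nearly all genes, and aged P-ERK1/2 High samples (grey triangles) spread more widely.

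E2F proteins bind short GC-rich sequences in the promoters of replication genes, and the starts of the cell cycle genes were searched for such letters because these genes moved together. The forms TTTCCCGC, TTTCGCGC, TTTGCCGC and TTTGGCGC were looked for on both strands in the 250 bases before each gene start of the RefSeq promoter table (GRCm38.p6). A form was present in 1.86% of the 32851 promoters of that table, and in 29 of the 601 panel genes found in it. Of the 17 cell cycle genes with an entry, 4 held a form, *Mcm5* and *Mcm6* among the called genes and *Cdc25a* and *Hells* among the others. Among all genes called higher 5 of 48 held it, the others being *Bard1*, *Dnmt1* and *Topbp1*, and among those called lower 1 of 16 (*Atg14*). *Mcm6* held 3 matches, 110 to 47 bases before its start, and *Mcm5* held 2 that overlap. The stretches of the 5 genes called higher are given 5′ to 3′ in the direction of the gene, with the matches in capitals.
Mcm5, chr8:75109336-75109387, plus strand: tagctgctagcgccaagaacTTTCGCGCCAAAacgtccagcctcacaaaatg
Mcm6, chr1:128359725-128359835, minus strand: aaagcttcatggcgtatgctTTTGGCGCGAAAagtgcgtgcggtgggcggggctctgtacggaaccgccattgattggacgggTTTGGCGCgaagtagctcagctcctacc
Topbp1, chr9:103305178-103305225, plus strand: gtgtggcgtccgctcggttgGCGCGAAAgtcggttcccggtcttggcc
Dnmt1, chr9:20952815-20952862, minus strand: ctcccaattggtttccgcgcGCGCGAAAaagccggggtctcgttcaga
Bard1, chr1:71103154-71103201, minus strand: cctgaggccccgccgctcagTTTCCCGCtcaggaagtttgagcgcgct
These are matches of letters, and whether a factor binds there was not measured.

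Of 33 genes of DNA damage sensing and repair 4 were called higher and none lower, 12.1% against 8.05% of the panel, with a median of 0.41. The count of genes called higher was 1 without adult sample 10, 2 without aged sample 12 and 1 to 5 over all samples left out in turn. It was 2 with median-of-ratios scaling, with the negative controls subtracted and with adult sample 11 added, 1 with edgeR and with unequal variances, and 0 with a pseudocount of 20. With positive-control scaling none was higher and 4 were lower. *Topbp1*, which starts replication and activates the checkpoint kinase ATR, was at 207, 210.3, 203 and 271 in the aged samples and 109, 136 and 86.5 in the adult samples (log2 fold change 1.02, SE 0.20, limma with Benjamini-Hochberg adjusted p = 0.00802). *H2afx*, the histone variant phosphorylated at DNA breaks, was at 430.3, 431, 342 and 439 in the aged samples and 220.1, 198 and 190.2 in the adult samples (log2 fold change 1.01, SE 0.15, limma with Benjamini-Hochberg adjusted p = 0.00284). *Topbp1* lost its call without aged sample 12 or adult sample 10, and *H2afx* when any of 5 samples was left out. *Mgmt*, which removes alkyl groups from guanine, was at 158 ± 41.9 against 70.1 ± 29.2 and was not called without adult sample 1 or adult sample 10, and *Bard1*, the partner of BRCA1, was called higher at 64.7 ± 12.4 against 25 ± 12.6 with no aged sample and 1 adult sample above background. *Parp1*, which marks strand breaks with poly-ADP-ribose, had a log2 fold change of 0.74 and was not called. Of 52 chromatin modifiers 1 was called higher and 2 lower, 1.92% and 3.85% against 8.05% and 2.73% of the panel. The maintenance methyltransferase *Dnmt1*, which copies DNA methylation at the replication fork, was called higher at 166, 193, 166 and 197 in the aged samples and 77.1, 83.8 and 101 in the adult samples (log2 fold change 1.04, SE 0.15, limma with Benjamini-Hochberg adjusted p = 0.00289). It was not called without aged sample 12 or adult sample 1. *Kdm5b*, a demethylase of histone H3, was called lower at 90.6 ± 26.7 against 189.9 ± 28.7 with 2 of 4 aged samples above background, and was not called without aged sample 3, aged sample 9 or adult sample 4. The other call of this list, *Kdm4d*, was below background in all 7 samples compared.

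Calls among stress and cell death genes are given beside the panel shares of 8.05% higher and 2.73% lower. *Gadd45a*, a stress-induced gene of growth arrest and a p53 target, was at 203, 277, 219 and 242 in the aged samples and 751, 1092 and 665 in the adult samples (log2 fold change -1.80, SE 0.21, limma with Benjamini-Hochberg adjusted p = 0.001). The adult values were all over 2 times the highest aged value. *Gadd45a* was the only call among 15 genes of p53 and stress arrest (6.67% lower against 2.73% of the panel), whose median was 0.06. None of 13 BCL2-family genes was called in limma, with a median of 0.39. Of the 13, 6 had an unadjusted limma p under 0.05, as did 302 of the 770 panel genes. With edgeR none of the 13 was called. In limma 1 was called higher under quantile normalization, with the 6 stable housekeeping genes and without aged sample 9. The median was 0.25 without adult sample 10, 0.09 under quantile normalization and -0.42 with positive-control scaling. Of 10 oxidative stress genes 1 was called higher, 10% against 8.05% of the panel. This was *Nqo1*, a quinone reductase under NRF2, at 556, 543, 444 and 730.2 in the aged samples and 195, 257 and 168 in the adult samples (log2 fold change 1.45, SE 0.22, limma with Benjamini-Hochberg adjusted p = 0.00291).

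Genes of the cytoskeleton and of membrane-linked proteins had a positive median under every scaling tried. Of 15 genes 5 were called higher and none lower, 33.3% against 8.05% of the panel. The median was 0.89, and 13 of the 15 lay above every adult sample, as did 201 of the 770 panel genes. Besides *Crip1* and *Anxa1*, the actin-bundling protein *Fscn1* was at 1758, 1543, 1632 and 2535 in the aged samples and 674, 1119 and 556 in the adult samples (log2 fold change 1.29, SE 0.28, limma with Benjamini-Hochberg adjusted p = 0.0116), and *S100a10*, the partner of annexin A2, was at 2236, 2429.5, 2231 and 3409 in the aged samples and 1087, 1311 and 976 in the adult samples (log2 fold change 1.18, SE 0.20, limma with Benjamini-Hochberg adjusted p = 0.0047). *Was*, which drives actin branching in blood cells, was at 349, 399.7, 305 and 345 in the aged samples and 168, 139.7 and 175 in the adult samples (log2 fold change 1.11, SE 0.16, limma with Benjamini-Hochberg adjusted p = 0.00239). *Was* was not called with median-of-ratios or quantile normalization, positive-control scaling or edgeR. The count was 8 without adult sample 4, 1 under positive-control scaling, 2 under quantile normalization and 3 with adult sample 11 added. Sample 12 was the highest aged sample for *Crip1*, *Anxa1*, *Fscn1* and *S100a10* and the lowest but one for *Was*.

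Metabolic genes were mixed. *Ldha*, the last enzyme of anaerobic glycolysis, was at 6895, 6791, 6514 and 9333 in the aged samples and 2675, 3629.7 and 2666 in the adult samples (log2 fold change 1.30, SE 0.19, limma with Benjamini-Hochberg adjusted p = 0.00284). *Hilpda*, which protects lipid droplets from breakdown, was at 173, 172, 161 and 213 in the aged samples and 77.1, 76.9 and 86.5 in the adult samples (log2 fold change 1.15, SE 0.15, limma with Benjamini-Hochberg adjusted p = 0.00183). *Hif1a*, the oxygen-sensitive transcription factor that can turn on both, was at 644, 739.7, 658 and 607 in the aged samples and 1291, 1463 and 1463 in the adult samples and fell (log2 fold change -1.09, SE 0.14, limma with Benjamini-Hochberg adjusted p = 0.00161). These were the 3 called genes of 6 on the hypoxia and glycolysis list, 33.3% higher and 16.7% lower against 8.05% and 2.73% of the panel. With adult sample 11 added or positive-control scaling none of the 6 was called higher. *Hilpda* also lost its call with median-of-ratios scaling and with a pseudocount of 20. Of 16 genes of lipid handling 2 were called higher (12.5% against 8.05% of the panel), *Hilpda* and the prostaglandin synthase *Ptgs2*, which was at 934 ± 219 against 470.5 ± 175 and lost its call when any of 4 samples was left out.

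With the deposited values autophagy and lysosome genes gave a single call each, both lower, 3.70% and 7.14% against 2.73% of the panel. Of 27 autophagy genes 1 was called, *Atg14*, a subunit of the lipid kinase complex that starts autophagosomes, which was at 54.2, 73.6, 50.8 and 36.9 in the aged samples and 118, 136 and 101 in the adult samples. No aged sample was above background for it, and the fall was at least 1.2-fold (limma with Benjamini-Hochberg adjusted p = 0.0107). It was not called without aged sample 12. The list's median was 0.02, with -0.45 and 1 call when adult sample 11 was added. Quantile normalization gave -0.19 with 3 called lower and positive-control scaling -0.79 with 8 called lower. *Ulk1*, the kinase that starts autophagy, was at 129, 158, 136 and 135 in the aged samples and 247, 304 and 232 in the adult samples, below the adult samples without overlap and with a log2 fold change of -0.89 that missed the fold limit. The cargo receptors *Sqstm1* (-0.72) and *Optn* (-0.76) lay likewise below the adult samples and were not called. Of 14 lysosomal genes *Ctse*, unmeasured in the aged samples, was the only call, with a median of 0.08.

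Several further genes were called outside these lists or as single members. With *Mmp12* and *Ptx3*, the metalloprotease inhibitor *Timp1* made up the 3 called genes of 12 of the extracellular matrix and secreted pattern recognition list, 25% against 8.05% of the panel. The list's median was 0.14 against 0.10 for all genes, and 1 of the 12 was called with adult sample 11 added. *Timp1* was at 1054 ± 260.2 against 480.5 ± 197, and its call was lost without aged sample 12, adult sample 1 or adult sample 10. The endocytic adaptor *Dab2* was at 444, 480.3, 420.0 and 439 in the aged samples and 182, 179 and 166 in the adult samples (log2 fold change 1.34, SE 0.13, limma with Benjamini-Hochberg adjusted p = 0.000598), and the laminin receptor subunit *Itga6* was at 936 ± 91.5 against 434 ± 55.1 (log2 fold change 1.11, SE 0.15, limma with Benjamini-Hochberg adjusted p = 0.00232). *Itga6* was not called with median-of-ratios or quantile normalization, positive-control scaling or edgeR. *Prkar2b*, a regulatory subunit of protein kinase A, was at 187 ± 39.4 against 77.4 ± 8.53 (log2 fold change 1.24, SE 0.21, limma with Benjamini-Hochberg adjusted p = 0.0047), and the scaffold protein *Cytip* was at 152 ± 58.4 against 68.4 ± 20.9 (log2 fold change 1.12, SE 0.32, limma with Benjamini-Hochberg adjusted p = 0.0367), a call that was lost when any of 5 samples was left out. Lower were *Lcn2*, an iron-trapping lipocalin, at 179.6, 238, 276 and 123 in the aged samples and 592, 437 and 721 in the adult samples (log2 fold change -1.54, SE 0.30, limma with Benjamini-Hochberg adjusted p = 0.00847), the G-protein subunit *Gna15* at 91.9 ± 11.4 against 202 ± 30.1 with 1 of 4 aged samples above background (limma with Benjamini-Hochberg adjusted p = 0.00284) and the transcription factor *Sox4* at 290.0 ± 65.1 against 614 ± 146 (log2 fold change -1.08, SE 0.23, limma with Benjamini-Hochberg adjusted p = 0.0115). *Sox4* was not called without aged sample 3 or adult sample 4. *Lsr*, a lipoprotein receptor, was at 61, 31.6, 56.2 and 53.3 in the aged samples and 127, 80.3 and 158 in the adult samples, at least 1.2-fold lower with no aged sample above background, and was not called without adult sample 1 or adult sample 10 (limma with Benjamini-Hochberg adjusted p = 0.0189). None of 9 ribosomal protein genes was called in limma, but 8 of them lay above every adult sample, as did 201 of the 770 panel genes, with a median of 0.50. Of the 9, 7 had an unadjusted limma p under 0.05, as did 302 of the 770 panel genes. The median was -0.32 under scaling to the positive controls alone. No ribosomal gene was called with edgeR.

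Markers of other cells were mostly at background. Of 22 T and NK cell genes, none was above background in any aged P-ERK1/2 Low sample and 3 were in an adult sample, and the protease *Ctsw* was called lower at 27.1, 38.6, 45.5 and 20.5 in the aged samples and 111, 73.4 and 74.1 in the adult samples. No aged sample was above background for *Ctsw*, and its fall cannot be bounded. Of 6 genes of border macrophages and monocytes, 1 was above background in an aged and 2 in an adult sample, with *Ccr2*, *Cd163*, *Marco* and *Ms4a4a* in none. Of 20 oligodendrocyte genes, 1 was above background in an aged sample and 5 in an adult sample, and the summed level was 628 to 740 in the aged and 508 to 954 in the adult samples. *Mobp*, a myelin protein, was called lower at 16.9, 28.1, 16.1 and 28.7 in the aged samples and 74.9, 75.7 and 111 in the adult samples, with no aged sample and 2 of 3 adult samples above background. Its adult values lie around the aged background, so no fall can be bounded and no fold is given. *Ttr*, the thyroxine carrier that the choroid plexus makes, was called lower at 220.2, 221, 214 and 176 in the aged samples and 558, 383 and 603 in the adult samples (log2 fold change -1.28, SE 0.19, limma with Benjamini-Hochberg adjusted p = 0.00295). Neuronal genes were above background for 4 of 22 in an aged and 5 of 22 in an adult sample, with *Nptx1* called higher at 226 ± 24.4 against 101 ± 33.6, a call lost without adult sample 4, and *Cntnap2* called lower at 26.7 ± 8.4 against 60.3 ± 5.12 with no aged and 1 adult sample above background. Astrocyte genes were above background for 3 of 9 and 5 of 9, B cell genes for 1 of 9 in both groups, neutrophil and mast cell genes for 2 of 10 and 3 of 10, and endothelial genes for 6 of 12 and 8 of 12. The summed level of the endothelial genes was 1592 to 2424 in the aged and 1371 to 1714 in the adult samples, and that of neutrophil and mast cell genes 464 to 546 and 709 to 1166, which includes *Lcn2*. *Ly6a*, an endothelial gene, was called higher at 81.3, 112, 80.3 and 98.5 in the aged samples and 36.3, 34.9 and 37.1 in the adult samples, with 2 of 4 aged samples and no adult sample above background, and no fold is given. The summed levels in the aged and the adult samples were 393 to 557 and 385 to 697 for T and NK cell genes, and 185 to 270 and 199 to 302 for border macrophages and monocytes. For neuronal genes they were 934 to 1087 and 788 to 1006, for astrocyte genes 741 to 980 and 618 to 892, and for B cell genes 923 to 1202 and 1084 to 1453. The part of such cells in the results was not tested. Of the 7 genes of microglial identity, 6 were above background in an aged and 7 in an adult sample, with a summed level of 3876 to 4311 and 3571 to 3931. Of these 7 genes, *Fcrls* and *Tmem119* were called lower, beside 2.73% of the panel, and none was called higher. Of the 7 genes 4 lay below every adult sample, as did 80 of the 770 panel genes, and the median log2 fold change was -0.71.

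The direction of the smaller changes depended on the reference for scaling. The authors' factors bring 13 housekeeping genes to a common geometric mean, and none of these genes was called by limma. Of the 13, 5 had an unadjusted limma p under 0.05, as did 302 of the 770 panel genes. *Aars* had a log2 fold change of -0.70 and *Gusb* of 0.67. The edgeR test called no housekeeping gene. The panel-wide median was 0.10 with the deposited values, -0.04 under median-of-ratios scaling and under quantile normalization, 0.26 on the basis of 6 stable housekeeping genes and -0.68 on that of the positive control probes alone. With the deposited values 74.7% of the called genes were higher. Median-of-ratios scaling called 76 genes, 64.5% of them higher, and quantile normalization 79, with 59.5% higher. The 6 stable housekeeping genes gave 97 calls, with 86.6% higher, and subtraction of the negative controls 116, with 49.1% higher. Positive-control scaling called 228 genes, 8 higher and 220 lower. Of the lists described, cell cycle and cytoskeleton kept a positive median under each of these 5 scalings, and homeostatic and antigen presentation genes kept a negative one. *Mmp12*, *Ptx3*, *Ccl7*, *Cd36*, *Crip1*, *Cd72*, *Ccl2* and *Lrrc25* were the 8 genes called higher with positive-control scaling. *Ccl7*, *Cd36*, *Crip1*, *Ptx3*, *Fcrls* and *Mobp* were called under every alternative setting tried that tested them, the addition of adult sample 11 included, although the level of *Mobp* was not measured in the aged samples.

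**Figure D5:**
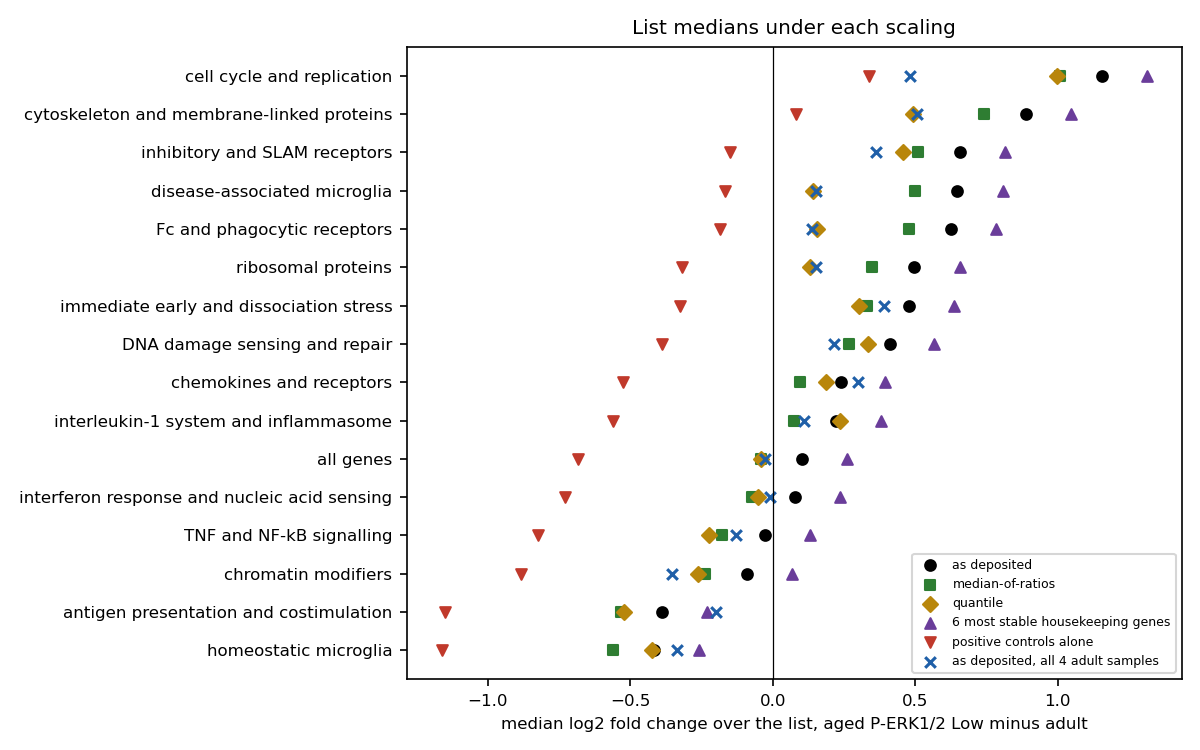
Median log2 fold change (aged P-ERK1/2 Low minus adult) of 15 gene lists and of all genes on the x axis, with a symbol for each scaling and a cross for the deposited values with adult sample 11 added. The cell cycle list stands at the top under every scaling and the homeostatic and antigen presentation lists at the bottom, while positive-control scaling moves all lists to the left.

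The aged P-ERK1/2 High samples come from the same kind of mice and were read on the same panel, and their values stand beside those of the called genes as a description, since the comparisons share samples. By the group means of the log2 values, P-ERK1/2 High lay above both other groups for 25 of the 62 genes called higher, between them for 26 and below both for 11. For the 21 genes called lower it lay above both for 6, between for 8 and below both for 7. *Mmp12* was at 54885, 94274, 8502 and 83267 in the P-ERK1/2 High samples and *Anxa1* at 9458, 14366, 2496 and 10659. For *Cd47* they were 144, 133, 80.8 and 134, below all aged P-ERK1/2 Low samples and within or below the adult range, with a log2 fold change of -0.61 against adult. For *Ptx3* they were 174, 52.9, 22.5 and 128, also below all P-ERK1/2 Low samples. For *Tmem119* they were 175, 282, 509.8 and 267, all above the adult samples, where P-ERK1/2 Low samples lay below them. *Olfml3* was at 147, 189, 399.8 and 130.5 and *Fcrls* at 131, 225, 541 and 152, below the adult samples in both aged groups.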

How the data were processed

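RNA of the sorted, fixed microglia was read on the NanoString nCounter Mouse Neuroinflammation panel, with 757 genes, 13 housekeeping genes and 14 control probes. The authors normalized the counts in the nSolver software, and the deposited signal values of a gene equal its count times a single factor per sample. The sources used here do not give the nSolver version. All 12 columns were matched to samples through their titles. Counts recovered by undoing the factor were whole within 0.1 for 100% of the values of the 7 samples compared. The precision of each value is limited by these counts and by the number of samples, and no amplification is involved.

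Values were tested as log2(value + 1) with limma 3.58.1 in R 4.3.3 (lmFit and eBayes, two-sided) over all 770 genes without a filter, with the 4 aged P-ERK1/2 Low and 3 adult samples in the fit and no covariate. A call needed p under 0.01 together with a change of more than 1 on the log2 scale, as in the study, and p-values were adjusted by Benjamini-Hochberg over 770 genes. Named genes were the 12 largest rises and 10 largest falls among called genes with non-overlapping groups and a sample above background, the genes the study labels for this comparison, and members of described lists. The 38 gene lists, the members and the tests were chosen with earlier results of these data known. Where a group had no sample above background, the fold is a bound against that group's background if every sample of the other group was above its own and the bound exceeds 1, and otherwise no fold is given. Gene symbols matched RefSeq for 763 genes directly and for 7 by a synonym.

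Alternatives were other thresholds, pseudocounts of 0.1 and 20, filters on low values, median-of-ratios, quantile, stable housekeeping and positive-control scaling, subtraction of negative controls, a spread shared by 11 samples, unequal variances, all 4 adult samples, edgeR 4.0.16 (quasi-likelihood) on recovered counts, and leaving out each sample. Counts per list under these were added after seeing the data.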

Additional observations from a re-analysis of the deposited data

Results flagged for a closer look

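For 8 of the 83 called genes, a sample of the aged P-ERK1/2 Low group lay far from the other 3 by Dixon's criterion, which chance meets in about 1 in 20 groups. Sample 12 was the distant sample for 6 of them. It was the highest for *Crip1* (1555), *Ldha* (9333), *Mcm6* (468), *S100a10* (3409) and *Topbp1* (271), and the lowest for *Ttr* (176). Sample 9 was the lowest for *H2afx* (342) and sample 6 the lowest for *Nfkbia* (487). Without sample 12 the calls of *Crip1*, *Ldha*, *Mcm6*, *S100a10* and *Ttr* held and that of *Topbp1* was lost. The cause of these distances was not tested.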

How the results depend on the processing

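With the deposited values 83 genes were called, 62 higher and 21 lower. The counts were 201, 145 and 56 at an adjusted p under 0.05 with no limit on the fold, 228, 8 and 220 with positive-control scaling, 54, 41 and 13 with unequal variances, and 34, 21 and 13 with adult sample 11 added. The number of genes called lower was also 13 with a pseudocount of 20, 32 under quantile normalization, 13 with the 6 stable housekeeping genes and 59 with the negative controls subtracted. Leaving out each sample gave 75 to 95 calls, 52 to 67 higher and 16 to 30 lower, and 58 of the 83 genes were called in all 7 of these fits. The count of cell cycle genes was 0 with positive-control scaling, 0 with adult sample 11 added, 6 with edgeR, 8 with a spread shared by 11 samples and 11 to 13 without each sample. No called gene changed direction under any alternative. Among genes named but not called, the log2 fold changes of *Ccl3* (-0.18), *Cdkn1a* (-0.26), *Csf1r* (-0.24), *Cx3cr1* (-0.013), *Gusb* (-0.14), *Myc* (-0.20), *Parp1* (-0.071), *Trem2* (-0.17) and *Tyrobp* (-0.064) turned negative with positive-control scaling. That of *Apoe* was 0.15 with adult sample 11 added, and that of *Spp1* ran from -0.39 without adult sample 1 to 0.041 without adult sample 4. The cause of these changes was not tested. The groups come from mice of different ages, so the comparison has no pairs.

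The aged P-ERK1/2 Low samples had scaling factors of 2.68 to 4.10 against 1.16 to 2.47 in the adult samples, so the background on the value scale was 69.2 to 117 and 37.9 to 95.1. Genes below these levels in both groups have no measured order between them. In genes above background in all 7 samples, 39 were called higher and 6 lower.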

Other observations

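The adult sample marked as excluded, number 11, had a recovered total count of 1464449 and a geometric mean of the positive controls of 286, against 1181 to 1455 in the other adult samples. Its normalized value was 1 for *Ptx3*, and 102170.0 for *Mmp12*, above every aged P-ERK1/2 Low sample. It had 224 for *Fcrls* and 199 for *Olfml3*, below the 3 other adult samples, and 241 for *Tmem119*, above them.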
